A study of Homo sapiens with 36 samples.

Results

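Aminoacyl-tRNA synthetases were examined through 35 nuclear genes chosen by name, of 57771 genes in the deposited table: 19 that encode cytosolic enzymes and 16 that encode mitochondrial ones. Their transcripts were measured by bulk RNA-seq in 36 libraries of HepG2-IGF1R-KO, a human hepatoma line in which the IGF-1 receptor gene was targeted. All 4 groups are labelled with that knockout, and no unedited control was analysed here. IGF1R transcripts were at 77.8 to 134 CPM (counts scaled to equal library totals) over the libraries, a level that does not show the loss and cannot be set against an unedited line. Each group had 9 libraries and is labelled with 72 h of culture. In insulin-resistant medium, cells were either given 3 nM human insulin for 18 h or left untreated. In normal medium, cells were likewise given 3 nM insulin for 18 h or left untreated. Cells in resistant medium had been kept for 72 h in 20 mM glucose with fatty acids at 0.5 mM (oleic, linoleic and palmitic) and insulin at 1 nM. Whether that insulin was still there when untreated cells were harvested is not stated in the labels. The design asks how the response to insulin differs between the media.

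Each aminoacyl-tRNA synthetase joins 1 kind of amino acid to its tRNAs, and so sets the supply of charged tRNA for translation. Cytosolic and mitochondrial ribosomes use separate tRNAs, and most amino acids have a separate nuclear gene for each compartment (AARS1 and AARS2 for alanine, for example). GARS1 and KARS1 make both forms, EPRS1 joins 2 enzymes in 1 chain, and FARSA and FARSB are the 2 subunits of the cytosolic phenylalanine enzyme. In hepatocytes, which secrete much protein, several cytosolic genes are known targets of ATF4, a transcription factor raised by amino acid shortage and by other stresses that phosphorylate eIF2.

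Promoters of the members are shown first because some letters near the start site recur among them. RefSeq (GRCh38.p14) gave a promoter, 250 bases before to 50 after a start site, for 30 of the 35 members: 16 cytosolic and 14 mitochondrial. In 26 of them that site is the start of the gene as RefSeq lists it. In the other 4 it lies inside the listed gene, by 25 bases in EARS2, 269 in TARS1, 7007 in CARS2 and 11073 in FARS2. Distances below are from the start site of the promoter entry. The members without one were AARS2, LARS1, VARS1, VARS2 and YARS1. The 8 letters TGATGNAA, a core of the composite site bound by ATF4 with a C/EBP partner, were searched on both strands. They occurred in 6 of 16 cytosolic promoters (37.5%), in 1 of 14 mitochondrial promoters (7.14%) and in 3.67% of 27305 promoters of the same length. Windows of 30 bases around each match follow, with the match in capitals and read on the strand that gives TGATGNAA.
AARS1: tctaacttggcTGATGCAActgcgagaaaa
CARS1: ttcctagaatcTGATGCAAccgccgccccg
IARS1: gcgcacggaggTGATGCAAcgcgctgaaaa
MARS1: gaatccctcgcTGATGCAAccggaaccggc
NARS1: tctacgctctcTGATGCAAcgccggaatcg
TARS1: gctggaccagcTGATGCAAtcgaaaggcgc
YARS2: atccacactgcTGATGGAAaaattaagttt
All 6 cytosolic matches read TGATGCAA, whereas the mitochondrial match reads TGATGGAA. The AARS1 window lies at chr16:70289675-70289704 on the plus strand, and the match starts 187 bases before the start site. Those of CARS1 (chr11:3057407-3057436, plus), IARS1 (chr9:92293692-92293721, plus) and MARS1 (chr12:57488053-57488082, minus) have matches that begin 2, 13 and 4 bases before the start. The CARS1 and MARS1 matches run across the start site. The NARS1 (chr18:57621804-57621833, minus) and TARS1 (chr5:33440956-33440985, minus) matches lie 14 and 2 bases after it. The YARS2 match (chr12:32756076-32756105, minus) lies 197 bases before its start. A match of letters is a description and does not show a bound site.

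A second motif is shown because it lies beside the start of MARS2, the member with the largest change. The motif was chosen from MARS2, so the mitochondrial share below is partly set by that choice. Its part in any change was not tested. The E-box CACGTG, a palindrome bound by MYC with MAX and by USF factors among others, occurred in 1 of 16 cytosolic (6.25%), 3 of 14 mitochondrial (21.4%) and 7.43% of all promoters.
MARS2: atgcgcctctcaCACGTGctgtcagaacgc
CARS2: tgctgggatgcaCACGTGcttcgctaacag
EARS2: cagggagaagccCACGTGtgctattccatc
IARS1: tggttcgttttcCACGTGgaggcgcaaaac
The E-box starts 11, 3 and 15 bases before the start site of the promoter entry in MARS2 (chr2:197705346-197705375, plus), CARS2 (chr13:110706501-110706530, minus) and EARS2 (chr16:23557348-23557377, minus). In IARS1 (chr9:92293866-92293895, minus) it starts 186 bases before. The 250 bases before the MARS2 start (chr2:197705119-197705368, plus) also hold 2 matches to the NRF1 motif, which is bound by nuclear respiratory factor 1, and 1 match to CCGGAAG, an ETS family core. All 4 matches are in capitals and none overlaps another.
MARS2 upstream: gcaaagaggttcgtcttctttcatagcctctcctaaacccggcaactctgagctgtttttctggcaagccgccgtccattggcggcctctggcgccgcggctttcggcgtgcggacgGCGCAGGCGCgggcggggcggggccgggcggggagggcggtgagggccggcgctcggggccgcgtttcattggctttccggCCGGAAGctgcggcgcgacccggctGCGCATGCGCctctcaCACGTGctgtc
Both sets held the ETS core often, at 8 of 16 cytosolic (50%) and 6 of 14 mitochondrial (42.9%) promoters against 10.7% of all. The HARS1 and HARS2 windows overlap by 184 bases and hold the same pair of ETS matches, which count once in each set. The NRF1 motif was in 3 of 16 (18.8%) and 3 of 14 (21.4%) against 6.28%.

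Library totals were 26.6 to 116.8 × 1e6 counts, and the members had 204 to 62375 counts in any library, so counting error is small for all of them. Hepatocyte markers were present throughout, with ALB at 3130 to 12900 CPM. Transcripts beyond the labelled hepatocyte type were also present: the 21 stromal markers (collagens and other mesenchymal genes) had a median of 383 to 1370 CPM in 30 libraries, against 0.0299 to 0.104 CPM in the other 6. Summed over the list, that is 24900 to 82340 CPM per library for the 30 and 197.1 to 248.9 CPM for the 6. The 6 were replicates 1 to 3 of untreated cells in resistant medium and replicates 4 to 6 of insulin-treated cells in normal medium. Endothelial and leukocyte defining genes were low, with KDR at most 0.016, CDH5 at most 1.58, CD3E at most 0.0376 and PTPRC at most 0.433 CPM. The 5 leukocyte genes had sums of 15.81 to 26.59 CPM (the 6) and 15.92 to 47.62 CPM (the 30), with CD68 the highest of them. The 5 cholangiocyte genes had sums of 928.6 to 1712 CPM (the 6) and 728 to 1492 CPM (the 30), with EPCAM at 142 to 238 CPM and 53.9 to 159 CPM. Their part in the results was not tested. In bulk RNA, fewer cells of a type and less RNA per cell cannot be told apart. Levels below are CPM scaled by TMM, edgeR's trimmed-mean scaling to a reference library, which here was 1 of the 6 (insulin-treated, normal medium, replicate 5). Set counts and the members whose value or call moved most are therefore also given without the 6 libraries, a fit chosen after seeing the data. Within each group, libraries resemble each other in runs of 3 (replicates 1 to 3, 4 to 6, 7 to 9), called triplets here. The p-values treat the 9 libraries as independent, which the labels call biological replicates.

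Per kilobase of transcript, cytosolic synthetase mRNAs were the more abundant set in untreated cells of normal medium. Lengths were those of the GENCODE 29 transcript with the longest coding sequence. The cytosolic levels ran from 16.5 to 159 CPM per kilobase (median 57.7) and the mitochondrial ones from 2.72 to 46 (median 10.14). SARS1, the serine enzyme, and GARS1, the glycine enzyme, were highest at 159 ± 41.3 and 152 ± 46.5 CPM per kilobase, and did not differ beyond their spread (SD, n = 9 libraries). IARS2, for isoleucine, stood at 46 ± 1.45 CPM per kilobase as the highest mitochondrial member, level with RARS1 at 45.6 ± 3.79. PARS2, for proline, was lowest at 2.72 ± 0.241 CPM per kilobase. MARS2 ranked 33 of 35 at 5.35 ± 0.643 CPM per kilobase.

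Insulin in normal medium raised many synthetase transcripts. Of the 19 cytosolic members, 13 were higher with insulin and 0 lower (edgeR quasi-likelihood test, Benjamini-Hochberg adjusted p under 0.05). Their median log2 fold change was 0.42, against 0.03 over all 17983 genes tested, of which 24.9% were higher and 10.2% lower. Without the 6 libraries, 13 were again higher, 12 of them the same genes, with a median of 0.28; 15.4% of all genes were then higher. Of the 16 mitochondrial members, 8 were higher and 0 lower, with a median of 0.23. That count moved with the processing. When each library served in turn as the TMM reference and the factors were averaged, 7 were higher and 2 (LARS2 and TARS2) lower. Of all genes 19% were then higher and 13.7% lower. DESeq2 gave the same counts (20.2% of all genes higher, 15.1% lower), and without the 6 libraries 2 were higher and 4 lower, against 18.1% of all genes lower.

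WARS1, the tryptophan enzyme, had the largest rise of the cytosolic set. Its lowest, median and highest levels were 237, 314 and 406 CPM with insulin, against 115, 136 and 222 CPM in untreated cells. The 2 groups did not overlap. The log2 fold change was 0.95 ± 0.16 (SE, edgeR adjusted p = 1.34e-05), and 0.82 without the 6 libraries.

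AARS1, for alanine, held 413, 515 and 655 CPM with insulin and 269, 296 and 342 CPM untreated. Every insulin library exceeded every untreated one. The change was 0.83 ± 0.07 on the log2 scale (edgeR adjusted p = 2.91e-10), and 0.59 without the 6 libraries.

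Both phenylalanine subunits rose. FARSB held 70.1, 96.8 and 128 CPM with insulin and 46.4, 51.1 and 69.5 CPM untreated, a log2 fold change of 0.79 ± 0.09 (edgeR adjusted p = 3.14e-08). FARSA held 98.2, 133 and 167 CPM with insulin and 74.2, 82.7 and 95.9 CPM untreated, a change of 0.64 ± 0.08 (edgeR adjusted p = 5.84e-08). For both subunits the groups did not overlap, by a margin under 3 CPM. FARSB changed by 0.53 and FARSA by 0.42 without the 6 libraries, both called.

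VARS1, for valine, held 178, 234 and 306 CPM with insulin and 132, 140 and 159 CPM untreated (log2 fold change 0.74 ± 0.09, edgeR adjusted p = 2.64e-08). YARS1, for tyrosine, held 266, 302 and 333 CPM with insulin and 154, 201 and 230 CPM untreated (0.61 ± 0.08, edgeR adjusted p = 1.35e-07). KARS1, for lysine, held 187, 233 and 272 CPM with insulin and 152, 164 and 172 CPM untreated (0.46 ± 0.06, edgeR adjusted p = 3e-07). The ranges of all 3 genes were apart. They changed by 0.50, 0.43 and 0.25 without the 6 libraries, all called. With WARS1, AARS1, FARSA, FARSB, LARS1, MARS1 and NARS1, they make 10 cytosolic members whose insulin range lay wholly above the untreated one, which held for 6.63% of all genes (1.81% lay wholly below).

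The remaining cytosolic genes moved less. IARS1, MARS1, NARS1, TARS1, HARS1 and LARS1 rose with log2 fold changes of 0.27 to 0.43. QARS1, for glutamine, showed the smallest change of the set with 36 libraries, at 138, 148 and 191 CPM under insulin and 151, 162 and 177 CPM untreated (-0.04 ± 0.06, edgeR adjusted p = 0.66). It was called lower, at -0.15 to -0.16, in 15 of 36 fits that left out 1 library: replicate 4, 5 or 6 of untreated cells in normal medium, 1 of replicates 1 to 7 of untreated cells in resistant medium, or replicate 1, 2, 3, 4 or 8 of insulin-treated cells in resistant medium. In each of these 15 fits edgeR also took another TMM reference library, and the part of the reference was not tested. RARS1, for arginine, was at 0.07 ± 0.05 (edgeR adjusted p = 0.308). RARS1 was at 0.02 and QARS1 at -0.09 without the 6 libraries, both uncalled. EPRS1, CARS1, SARS1 and GARS1 were at 0.20 to 0.39 and did not pass the test. Of the 7 listed enzymes of the multisynthetase complex, the cytosolic particle that holds several synthetases together, 4 rose (IARS1, KARS1, LARS1 and MARS1) and EPRS1, QARS1 and RARS1 did not pass.

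**Figure D1:**
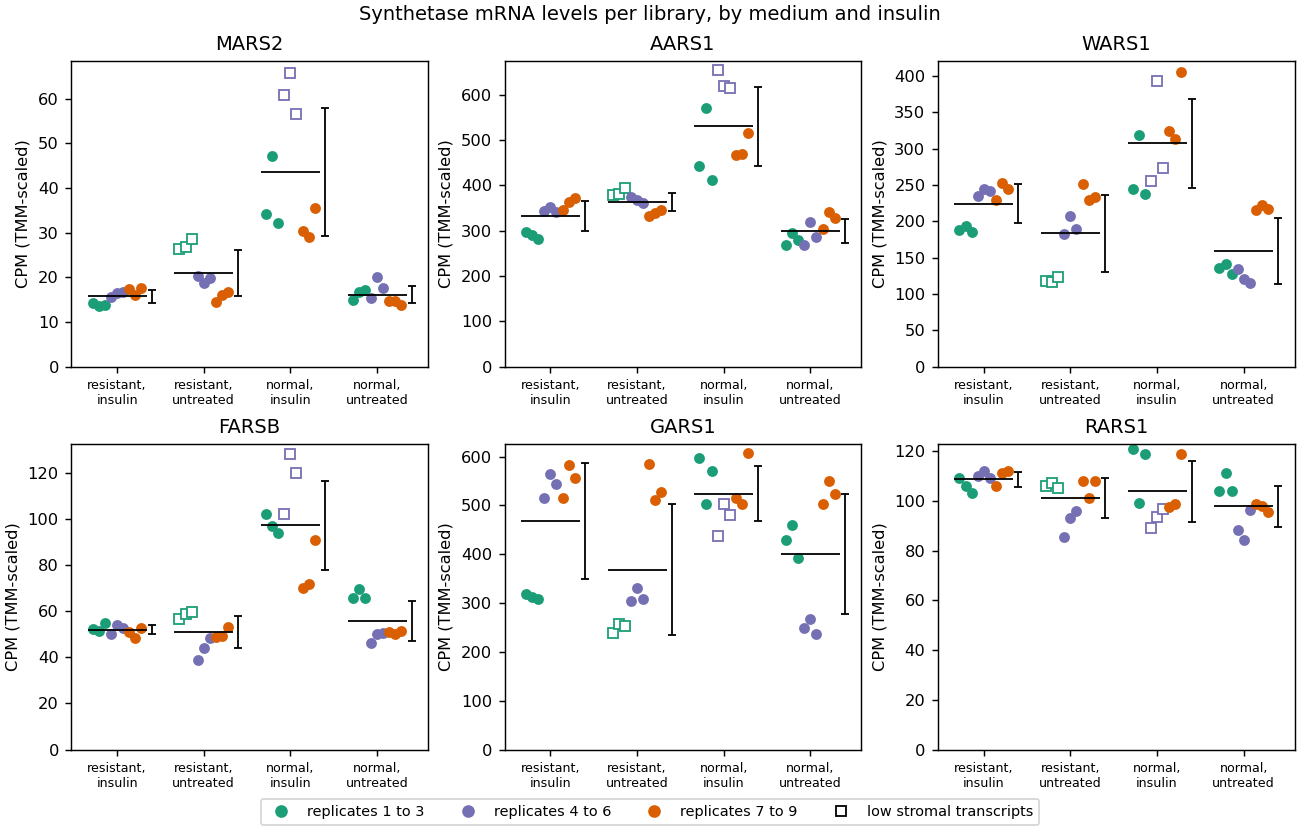
TMM-scaled CPM of 6 synthetase genes in each of the 36 libraries, with the group mean (line) and SD (bar beside it, n = 9). Colours mark the triplets and open squares the 6 libraries low in stromal transcripts. MARS2, AARS1, WARS1 and FARSB sit higher in all insulin libraries of normal medium than in its untreated ones, RARS1 overlaps, and GARS1 follows the triplets, from 236 to 550 CPM in untreated cells of normal medium.

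MARS2, the mitochondrial methionine enzyme, had the largest change of all 35 members. It held 29, 35.6 and 65.8 CPM with insulin and 13.7, 15.4 and 20 CPM in untreated cells. The ranges did not overlap. The mean was 43.5 ± 14.3 CPM with insulin and 16.1 ± 1.94 CPM untreated (SD, n = 9 each), with a log2 fold change of 1.44 ± 0.15 (edgeR adjusted p = 3.49e-09). Without the 6 libraries it was 1.04 ± 0.07 (edgeR adjusted p = 1.12e-11), and within the batches of 22 April, 11 April and 24 May it was 1.21, 1.46 (not called) and 1.58.

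YARS2, for tyrosine, was the other mitochondrial member with separate ranges, at 23.9, 27.1 and 31.6 CPM with insulin and 21, 21.7 and 23.7 CPM untreated. On the log2 scale it changed by 0.32 ± 0.04 (edgeR adjusted p = 8.33e-07), and 0.17 without the 6 libraries (edgeR adjusted p = 0.00836). MARS2 and YARS2 were the only 2 mitochondrial members higher in both fits.

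The other 6 called mitochondrial genes were lost without the 6 libraries. NARS2, for asparagine, held 24.2, 29.8 and 42.6 CPM with insulin and 20.9, 25.3 and 29.1 CPM untreated. The change was 0.37 ± 0.09 in log2 terms (edgeR adjusted p = 0.000854), and 0.09 (edgeR adjusted p = 0.282) without the 6. WARS2 changed by 0.36 ± 0.08 (edgeR adjusted p = 0.000882) and 0.12 without the 6. EARS2, for glutamate, changed by 0.36 ± 0.10 (edgeR adjusted p = 0.00362) and 0.06 without them. AARS2, SARS2 and VARS2 stood at 0.32 to 0.34, and at -0.01 to 0.12 without the 6 libraries. IARS2 was at 0.01 ± 0.04 (edgeR adjusted p = 0.853), with 154, 168 and 177 CPM under insulin and 157, 163 and 176 CPM untreated. Without the 6 libraries IARS2, LARS2, PARS2 and TARS2 were called lower, at -0.14 to -0.30.

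**Figure D2:**
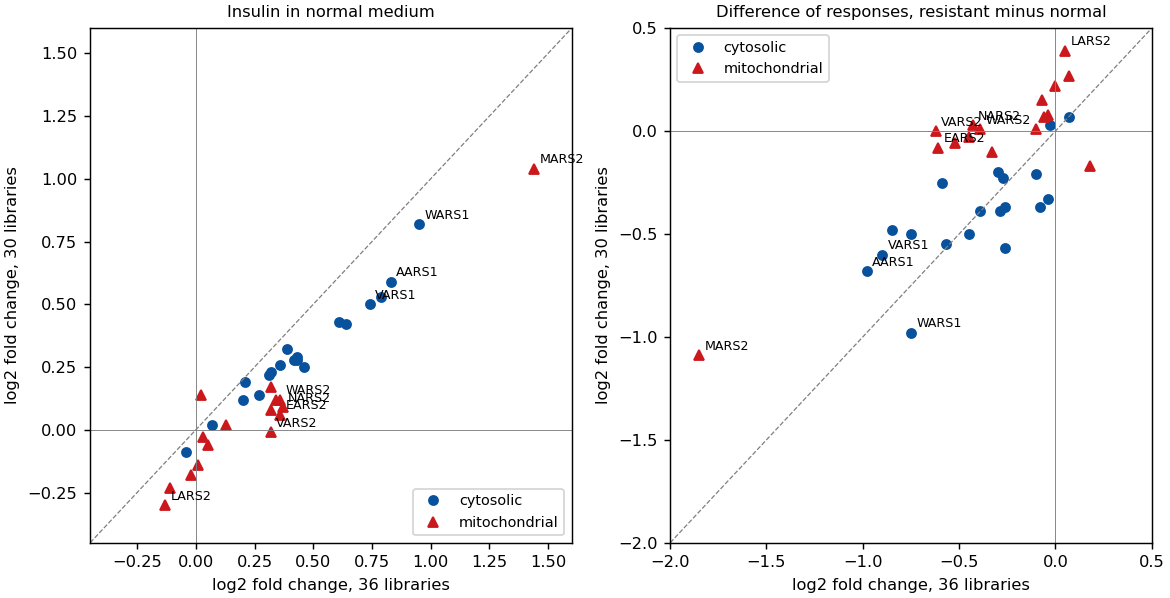
Log2 fold change of each synthetase gene with all 36 libraries (x axis) and with the 30 libraries that hold stromal transcripts (y axis), for insulin in normal medium (left) and for the difference of the insulin response, resistant minus normal medium (right). Circles are cytosolic and triangles mitochondrial genes, and the dashed line marks equal values. On the left nearly all points lie under the line, and MARS2 moves from 1.44 to 1.04. On the right the mitochondrial genes other than MARS2 lie near 0 or above it on the y axis.

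Marker levels differed between the same groups. The summed stromal level was 197 to 56700 CPM in insulin-treated and 24900 to 72400 CPM in untreated cells of normal medium. Stromal genes had a median log2 fold change of -0.59 with 0 of 21 called, and hepatocyte genes one of 0.10 with 2 of 22 higher and 3 lower. Without the 6 libraries these medians were -0.12 and -0.34, and 14 of 22 hepatocyte genes were lower. The part of either in the synthetase changes was not tested. The batch dates also divided the data: cytosolic members called higher numbered 0 of 19 within 22 April (median 0.20), 0 within 11 April (0.17) and 15 within 24 May (0.66), against 0.689%, 0% and 10.8% of all genes higher. The comparisons had 5 and 4, 2 and 2, and 2 and 3 libraries (insulin and untreated) in these batches. Those of 24 May were replicates 2 and 4 with insulin, the latter 1 of the 6, and replicates 4 to 6 untreated. That untreated triplet had the lowest cytosolic level of its group, at -0.38 against -0.10 and 0.01 (mean log2 CPM, described below). When each triplet was summed to 1 sample, AARS1 and MARS2 alone passed, against 1.76% of all genes higher and 1.72% lower.

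Genes that work beside the synthetases changed in the same comparison. Of all genes 24.9% were higher there and 10.2% lower, and 15.4% and 18.1% without the 6 libraries. All 3 scaffolds of the multisynthetase complex were higher: AIMP2 by a log2 fold change of 0.75 ± 0.09, AIMP1 by 0.54 ± 0.07 and EEF1E1 by 0.52 ± 0.10 (edgeR adjusted p at most 5.4e-05), and all 3 were also higher without the 6 libraries. Of 24 ATF4 and amino acid response genes, 18 were higher and 0 lower, with a median of 0.54, and 15 were higher without the 6. PPP1R15A, a phosphatase subunit that acts on eIF2, changed by 1.47 ± 0.12 (edgeR adjusted p = 1.47e-10), CEBPB, a C/EBP factor, by 1.31 ± 0.13 (edgeR adjusted p = 3.76e-09) and SHMT2, a mitochondrial serine enzyme, by 0.74 ± 0.07 (edgeR adjusted p = 3e-09). ATF4 itself was at 0.28 ± 0.07 (edgeR adjusted p = 0.00192).

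Of 20 genes of RNA polymerase III and its factors, which transcribe tRNA genes, 13 were higher, with POLR3G at 1.32 ± 0.14 (edgeR adjusted p = 1e-08); 8 were higher and 2 lower without the 6 libraries. Of 14 mitochondrial translation genes 9 were higher, and 5 higher and 2 lower without the 6. GFM1, a mitochondrial elongation factor, was at 0.46 ± 0.05 (edgeR adjusted p = 1.5e-08). Of 6 cytosolic elongation genes 4 were higher, and 0 without the 6. The shares of all genes were 24.9% higher with 36 libraries, and 15.4% higher and 18.1% lower without the 6. Numbers lower without the 6 are not given for the ATF4 and elongation lists. The counts of those lists therefore do not show whether any of their genes were lower in that fit. Set against the promoters, 5 of the 6 cytosolic genes with TGATGNAA were higher with insulin (median log2 fold change 0.42). Of the 10 without it, 5 were higher (median 0.35). For the ETS core, 4 of 8 with it were higher (median 0.35) and 6 of 8 without it (0.42). For the NRF1 motif these were 2 of 3 (0.36) and 8 of 13 (0.42). The 1 cytosolic gene with an E-box was higher, as were 9 of 15 without it. LARS1, VARS1 and YARS1 were higher but had no promoter entry, so they are in none of these counts. The part of any motif was not tested.

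Insulin in resistant medium gave 0 called members in either set, and 0% of all genes were called by edgeR. At an unadjusted p under 0.05 there were 1 cytosolic and 3 mitochondrial members, among 4490 of all genes, and DESeq2 called 0 members (0.272% of all genes higher and 0.2% lower). Set medians were 0.04 (cytosolic) and -0.06 (mitochondrial) on the log2 scale. AARS1 held 281, 343 and 372 CPM with insulin and 333, 367 and 394 CPM untreated, in overlapping ranges (-0.15 ± 0.08, edgeR adjusted p = 0.232). WARS1 held 186, 235 and 253 CPM with insulin and 116, 189 and 252 CPM untreated (0.19 ± 0.17, edgeR adjusted p = 0.49). MARS2 held 13.6, 16.1 and 17.6 CPM with insulin and 14.5, 19.9 and 28.6 CPM untreated (-0.41 ± 0.16, edgeR adjusted p = 0.116). All 35 members overlapped between the groups (0.089% of all genes lay wholly above and 0.128% wholly below). The smallest changes were those of MARS1 (-0.02 ± 0.11, edgeR adjusted p = 0.897) and CARS2 (-0.01 ± 0.04, edgeR adjusted p = 0.837). Stromal sums were 34000 to 77000 CPM with insulin and 232 to 82300 CPM untreated, and 21 of 22 hepatocyte genes had an unadjusted p under 0.05 with a median of -0.50. Their part was not tested. Within the 24 May batch there was no insulin-treated library of resistant medium. When the 6 libraries were left out, 0 members and 0% of all genes were called. In that fit 0 members had an unadjusted p under 0.05. The share of all genes at that level is not given, so this count is not a result about the members. The set medians were then -0.10 (cytosolic) and 0.05 (mitochondrial), with AARS1 at -0.09, WARS1 at -0.16 and MARS2 at -0.05.

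The insulin response itself was tested for a difference between the media. It was lower in resistant than in normal medium for 10 of 19 cytosolic and 8 of 16 mitochondrial members, and higher for 0 (23.5% of all genes lower, 6.22% higher). The medians were -0.30 and -0.21. All 10 and all 8 were also among the members higher with insulin in normal medium, a comparison that shares the same libraries. AARS1 differed by -0.98 ± 0.11 (edgeR adjusted p = 1.07e-07), VARS1 by -0.90 ± 0.13 (edgeR adjusted p = 2.2e-06), FARSB by -0.85 ± 0.13 (edgeR adjusted p = 1.24e-05) and FARSA by -0.75 ± 0.11 (edgeR adjusted p = 7.03e-06). WARS1 differed by -0.75 ± 0.23 (edgeR adjusted p = 0.0134) and KARS1 by -0.59 ± 0.09 (edgeR adjusted p = 5.38e-06). All 6 genes were also called without the 6 libraries, with AARS1 at -0.68, VARS1 at -0.60, FARSB at -0.48, FARSA at -0.50, WARS1 at -0.98 and KARS1 at -0.25. MARS2 differed by -1.85 ± 0.21 (edgeR adjusted p = 1.61e-07), the largest of the 35.

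Without the 6 libraries the sets parted. The cytosolic count was then 13 lower and 0 higher with a median of -0.39, including all 10 of the first fit, against 9.37% of all genes lower and 12.4% higher. Among mitochondrial members MARS2 alone was lower, at -1.09 ± 0.11 (edgeR adjusted p = 4.23e-08), and IARS2, LARS2 and TARS2 were higher at 0.22 to 0.39. VARS2, EARS2 and AARS2 differed by -0.62 ± 0.16, -0.61 ± 0.14 and -0.52 ± 0.14 with 36 libraries (edgeR adjusted p at most 0.00626) and by 0.00, -0.08 and -0.06 with 30. RARS1 (-0.03 ± 0.07, edgeR adjusted p = 0.755) and IARS2 (0.00 ± 0.05, edgeR adjusted p = 0.96) showed the smallest differences with 36. Scaled to 22 hepatocyte genes, 1 cytosolic and 1 mitochondrial member were lower (5.78% of all genes), and the mitochondrial median was 0.08. With triplets as samples 0 members passed, against 0.0196% of all genes lower and 0.00489% higher. Within the 22 April batch 0 members passed and within the 11 April batch 2 cytosolic and 1 mitochondrial, against 0.00544% and 2.97% of all genes lower; the 24 May batch lacks 1 of the 4 groups.

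**Figure D3:**
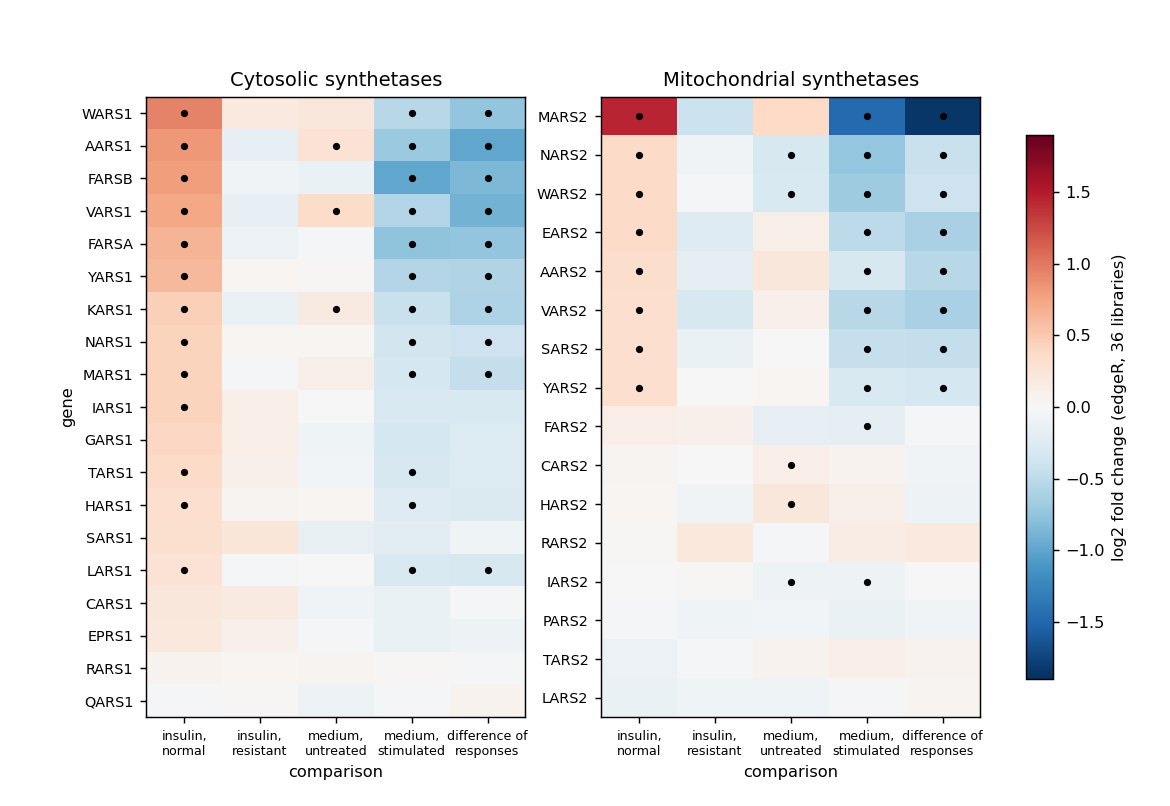
Log2 fold changes of the 19 cytosolic (left) and 16 mitochondrial (right) synthetase genes in 5 comparisons with all 36 libraries, ordered by the insulin effect in normal medium. Columns give insulin in normal and in resistant medium, resistant over normal medium in untreated and in stimulated cells, and the difference of the 2 insulin responses. Black dots mark an edgeR adjusted p under 0.05. The first column holds 13 and 8 dots, the second 0, and MARS2 has the strongest colours at 1.44, -1.47 and -1.85.

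In untreated cells, 3 of 19 cytosolic members (AARS1, VARS1 and KARS1) were higher in resistant medium, a share near the 13.3% of all genes. Of the cytosolic members 0 were lower, against 8.62% of all genes. VARS1 held 166, 183 and 207 CPM in resistant and 132, 140 and 159 CPM in normal medium. It was the 1 member whose ranges did not overlap (3.84% of all genes above, 1.62% below), at a log2 fold change of 0.35 ± 0.08 (edgeR adjusted p = 0.00236). AARS1 held 333, 367 and 394 CPM in resistant and 269, 296 and 342 CPM in normal medium (0.28 ± 0.07, edgeR adjusted p = 0.00473). KARS1 changed by 0.17 ± 0.06 (edgeR adjusted p = 0.0361) and by 0.04 without the 6 libraries (edgeR adjusted p = 0.625), where WARS1 was called instead at 0.47 ± 0.12 (edgeR adjusted p = 0.00324). IARS1 stood at 0.00 ± 0.11.

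Mitochondrial members went both ways in that comparison, with 2 higher and 3 lower (13.3% of all genes higher, 8.62% lower). NARS2 held 16.3, 20.6 and 23.3 CPM in resistant and 20.9, 25.3 and 29.1 CPM in normal medium, in ranges that overlapped. It was lower by a log2 fold change of -0.30 ± 0.09 (edgeR adjusted p = 0.0113), and by -0.46 without the 6 libraries. WARS2 held 12.4, 14 and 16.1 CPM in resistant and 15.2, 17.3 and 19.3 CPM in normal medium (-0.29 ± 0.08, edgeR adjusted p = 0.0103), and -0.44 without the 6. IARS2 was at -0.10 ± 0.04 (edgeR adjusted p = 0.0395). HARS2, for histidine, was higher at 0.21 ± 0.05 (edgeR adjusted p = 0.00163) and CARS2, for cysteine, at 0.12 ± 0.03 (edgeR adjusted p = 0.006). CARS2 lost the call without the 6 libraries, at 0.07 (edgeR adjusted p = 0.183), HARS2 was at 0.14 and IARS2 at -0.19. The count was then 1 higher (HARS2) and 5 lower (IARS2, LARS2, NARS2, VARS2 and WARS2), against 10.7% of all genes higher and 16% lower. SARS2 changed least, at 0.01 ± 0.08. Stromal and hepatocyte medians were -0.28 and 0.04, and 0.33 and -0.34 without the 6 libraries; their part was not tested. Within the batches of 22 April, 11 April and 24 May, 0, 0 and 7 cytosolic and 0, 0 and 3 mitochondrial members were called, against 2.03%, 0% and 25.6% of all genes, with 4 and 4, 2 and 2, and 3 and 3 libraries (resistant and normal). With triplets as samples 0 members passed, against 1.89% of all genes higher and 0.484% lower.

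In stimulated cells the members were lower in resistant than in normal medium. This held for 12 of 19 cytosolic (median log2 fold change -0.34) and 10 of 16 mitochondrial members (median -0.24), with 0 higher in either set (26.3% of all genes lower, 12% higher). Both media comparisons share libraries with the insulin comparisons above, so the values are not separate evidence. FARSB held 48.3, 52.3 and 54.7 CPM in resistant and 70.1, 96.8 and 128 CPM in normal medium (-0.98 ± 0.10, edgeR adjusted p = 2.39e-09). FARSA changed by -0.77 ± 0.08 (edgeR adjusted p = 8.18e-09), AARS1 by -0.70 ± 0.08 (edgeR adjusted p = 1.57e-08) and YARS1 by -0.55 ± 0.08 (edgeR adjusted p = 2.46e-06). VARS1 (-0.55 ± 0.09, edgeR adjusted p = 1.36e-05) and WARS1 (-0.53 ± 0.17, edgeR adjusted p = 0.0122) followed. AARS1, FARSA, FARSB, KARS1 and YARS1 had resistant ranges wholly below the normal ones, as did MARS2, NARS2, SARS2, VARS2 and WARS2 (10.2% of all genes below, 2.02% above). RARS1 was at 0.02 ± 0.05 (edgeR adjusted p = 0.813).

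MARS2 was at -1.47 ± 0.16 (edgeR adjusted p = 5.86e-09) between the stimulated groups, with 13.6, 16.1 and 17.6 CPM in resistant and 29, 35.6 and 65.8 CPM in normal medium. NARS2 held 16.9, 18.3 and 21.6 CPM in resistant and 24.2, 29.8 and 42.6 CPM in normal medium (-0.73 ± 0.09, edgeR adjusted p = 1.03e-07). WARS2 changed by -0.68 ± 0.09 (edgeR adjusted p = 2.19e-07) and VARS2 by -0.53 ± 0.12 (edgeR adjusted p = 0.000424). LARS2 changed least, at -0.03 ± 0.07. Without the 6 libraries 13 cytosolic members were lower, and 7 mitochondrial members lower and 4 higher (18.2% of all genes lower, 17.8% higher). NARS2 and WARS2 were then both at -0.44, VARS2 at -0.18 and MARS2 at -1.05. Among the cytosolic genes KARS1 was at -0.22, against -0.42 with 36 libraries, VARS1 at -0.34, FARSB at -0.73 and AARS1 at -0.49. Stromal genes had a median of 0.84 and hepatocyte genes of -0.68, 17 of 22 lower. Scaled to the hepatocyte genes, the set medians became 0.18 and 0.30, with 1 cytosolic member higher and 1 lower and 6 mitochondrial members higher and 1 lower, against 37% of all genes higher and 3.45% lower. The part of cell makeup was not tested. Within the 22 April batch 0 members were called and within the 11 April batch 5 cytosolic and 6 mitochondrial were lower, against 0.232% and 11.5% of all genes lower. With triplets as samples, AARS1, FARSA, FARSB, MARS2 and WARS2 were lower, against 3.01% of all genes lower and 1.6% higher.

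Each set was also summarised per library as the mean over its genes of log2 CPM relative to all 36 libraries, with no test. The cytosolic level was 0.20 to 0.37 with insulin and -0.40 to 0.05 untreated in normal medium, and the groups did not overlap. In resistant medium it was -0.23 to 0.13 with insulin and -0.30 to 0.11 untreated. The mitochondrial level was 0.02 to 0.36 with insulin and -0.12 to 0.09 untreated in normal medium, with overlap. In resistant medium it was -0.18 to -0.07 with insulin and -0.20 to 0.11 untreated.

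Triplets within a group also lay apart. In untreated cells of normal medium, replicates 1 to 3, 4 to 6 and 7 to 9 had cytosolic levels of -0.10, -0.38 and 0.01. Their median stromal CPM spanned 625 to 765, 383 to 512 and 1120 to 1210. In insulin-treated cells of resistant medium the levels were -0.21, 0.08 and 0.10, at stromal medians of 609 to 668, 1100 to 1180 and 1130 to 1270 CPM. In its untreated cells they were -0.28, -0.18 and 0.07, at 0.0376 to 0.104, 443 to 566 and 1110 to 1370 CPM. In these 3 groups the triplet lowest in stromal RNA was also lowest in cytosolic level, and where stromal ranges were apart the order was the same throughout. That order did not hold in insulin-treated cells of normal medium: the levels were 0.31, 0.32 and 0.26 at 392 to 869, 0.0299 to 0.0526 and 666 to 932 CPM. Mitochondrial levels were highest in the low-stromal triplet, at 0.31 against 0.10 and 0.12 in insulin-treated cells of normal medium and at 0.09 against 0.00 and -0.17 in untreated cells of resistant medium. Batch and library total also differed between triplets. In untreated cells of either medium, replicates 4 to 6 were all of the 24 May batch and the other libraries were not. In normal medium these replicates had the highest library totals of their group, and in resistant medium replicates 1 to 3 had the lowest. In insulin-treated cells of resistant medium, triplet totals overlapped and no library was of 24 May. The parts of stromal RNA, batch and library total in these levels were not tested.

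**Figure D4:**
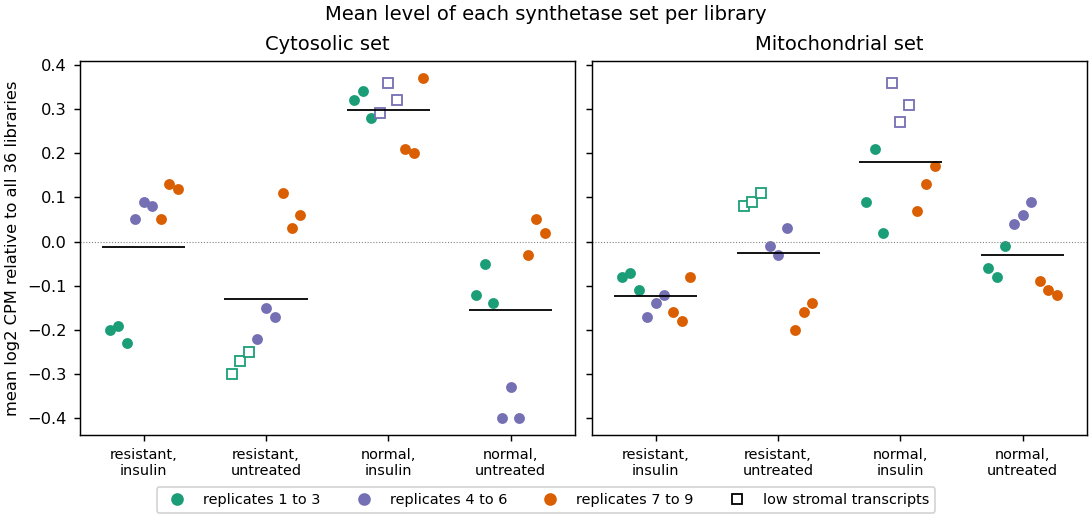
Mean log2 CPM of the cytosolic (left) and mitochondrial (right) synthetase sets in each library, relative to the mean of all 36 libraries. Lines are group means, colours mark triplets and open squares the 6 libraries low in stromal transcripts. The insulin libraries of normal medium lie at 0.20 to 0.37 in the cytosolic panel, above all its untreated ones, and in each of the other 3 groups 1 triplet or more lies apart from the rest.

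The cytosolic genes differed in how far they followed the triplets. GARS1 had triplet means of 427, 251 and 526 CPM in untreated cells of normal medium, a ratio of 2.1 between highest and lowest, the largest of the 19. With insulin they were 556, 473 and 541 CPM. Its log2 fold change with insulin was 0.39 ± 0.16 (edgeR adjusted p = 0.0688) in normal medium and 0.13 ± 0.18 (edgeR adjusted p = 0.667) in resistant medium, and the groups overlapped. GARS1 was at -0.26 without the 6 libraries in resistant medium (edgeR adjusted p = 0.929). In that fit it was called lower for the difference of the responses (-0.57, edgeR adjusted p = 0.0377) and between the stimulated groups (-0.39, edgeR adjusted p = 0.0352), against -0.26 and -0.34, both uncalled, with 36 libraries. KARS1, which like GARS1 serves both compartments, had triplet means of 168, 159 and 166 CPM in the same untreated cells, a ratio of 1.06, and passed the test. The median ratio there was 1.38 over the cytosolic and 1.17 over the mitochondrial set. Of the triplets low in stromal RNA, MARS2 had means of 61.1 CPM in insulin-treated cells of normal medium and 27.2 CPM in untreated cells of resistant medium, and AARS1 630 and 384 CPM. These 2 triplets differ in both medium and insulin.

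HARS1 and HARS2 are neighbouring genes of similar sequence, so how reads were divided between the pair is uncertain. HARS1 rose with insulin in normal medium by a log2 fold change of 0.32 ± 0.08 (edgeR adjusted p = 0.00122), with 82.8, 93.8 and 122 CPM under insulin and 67.4, 70.5 and 97.1 CPM untreated. It was at 0.23 (edgeR adjusted p = 0.0807) without the 6 libraries and lost the call in 28 of 36 fits that left out 1 library. That is also the number of those fits in which edgeR took another TMM reference library. Whether they are the same fits is not given, and the part of the reference was not tested. HARS2 was at 0.03 ± 0.05 (edgeR adjusted p = 0.66), with 22, 29 and 31 CPM under insulin and 24.4, 27.8 and 29.6 CPM untreated. Their responses did not pass the test of a difference between media (-0.27 ± 0.11 for HARS1, edgeR adjusted p = 0.0704, and -0.10 ± 0.07 for HARS2, edgeR adjusted p = 0.32).

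The genes outside the set whose deviations from their group means over the 36 libraries were most like those of the cytosolic set were ATP2A2 (Pearson r = 0.947), TES (0.946), SERP1 (0.943), IVNS1ABP (0.934) and PLK3 (0.932). These libraries share their triplets, depth and groups, so the values are descriptions. ATP2A2 encodes the calcium pump of the endoplasmic reticulum, and SERP1 a protein of its translocon. A shared function of the listed genes was not tested.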

How the data were processed

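The authors deposited 1 table of expected counts, that is estimated counts per Ensembl gene, unscaled. STAR, Salmon and GRCh37 are named per the submitters' processing notes; for versions, annotation and counting settings, the sources used here give nothing. Poly-A, strand-specific libraries were made, per the labels' protocols. Of all values 15.5% were not whole, and counts were rounded.

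The 36 libraries were grouped by title (4 groups of 9) and fitted with a coefficient per group and a term for the 3 batch dates in edgeR 4.0.16 under R 4.3.3 (TMM, filterByExpr, robust quasi-likelihood F-test). Benjamini-Hochberg adjustment covered all 17983 tested genes (threshold 0.05). All 35 members passed the filter. Levels are TMM-scaled CPM; set levels use a prior count of 2. Alternatives included DESeq2 1.42.0, RLE scaling, 2 other filters, no batch term, single batches, only the groups compared, a replicate block and each library left out in turn. Chosen once the data had been seen: omission of the 6 low-stromal libraries, averaged TMM, scaling to hepatocyte genes, summed triplets, and combinations. The count test was run on simulated data whose libraries were drawn independently, without triplets or batches. That run cannot show how the test performs where libraries share a triplet.

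Members, lists, markers and motifs were chosen with earlier results of these data known. Statistics are given for the up to 6 cytosolic and 4 mitochondrial members with the largest change among those called in a comparison, the member of each set with the smallest change, called members against their set's direction, HARS1, HARS2, GARS1 and KARS1, and up to 3 genes of a context list; YARS2, the other range examples and ATF4 were named after their values were seen. Of 125 context and marker entries, 124 were found. No pair of replicates agreed within sampling noise (lowest chi-square per gene 4.2).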

Additional observations from a re-analysis of the deposited data

Results flagged for a closer look

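The insulin response differed between resistant and normal medium by its own test in 10 cytosolic and 8 mitochondrial members, as described above. Among 104 groups of 9 libraries examined for a single far library, 3 had one, and chance gives about 1 in 20. HARS2 in replicate 5 of insulin-treated cells in normal medium stood at 22 CPM, with the nearest other library at 27.4 CPM; that library is 1 of the 6 low in stromal transcripts. IARS2 stood at 167 CPM in replicate 9 of insulin-treated cells in resistant medium, with the nearest at 158 CPM. In replicate 6 of untreated cells in normal medium IARS2 stood at 176 CPM, with the nearest at 166 CPM.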

How the results depend on the processing

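Counts are of called members, cytosolic first and mitochondrial second. For some of these fits the share of all genes is given above, and for the rest it is not given. Counts without that share show how calls moved with the processing and are not results about the members. With insulin in normal medium, 13 and 8 were higher. The mitochondrial count was 4 with no filter on low counts, 3 in a fit of only the groups compared and 2 without the 6 low-stromal libraries. The batches of 22 April and 11 April gave 0 and 0 cytosolic and 1 and 0 mitochondrial members, and that of 24 May 3 mitochondrial. Scaling to hepatocyte genes gave 8 cytosolic members, and doing so without the 6 libraries gave 15 mitochondrial; summed triplets gave 1 and 1, with and without the 6. HARS1 was at -0.05 within 11 April, IARS2 at -0.12 with no filter and -0.14 without the 6, and QARS1 at 0.33 without the 6 and scaled to hepatocyte genes. In resistant medium, the 0 mitochondrial calls became 1 with no batch term and 4 in a fit of only the groups compared. For the medium in untreated cells (3 and 5 called), the batches of 22 April and 11 April gave 0 and 0, and that of 24 May 7 and 3. No filter gave 3 mitochondrial calls, summed triplets 0 and 0 (with and without the 6), and omission of the 6 with hepatocyte scaling 19 and 14. The cytosolic median there was -0.05 within 22 April and -0.06 within 11 April. The mitochondrial median was -0.08 within 24 May, -0.12 without the 6 and -0.03 with triplets and without the 6. GARS1 was at 0.31 within 24 May. Without the 6 and with hepatocyte scaling GARS1 was at 0.72, NARS2 at 0.06 and WARS2 at 0.08. For the medium in stimulated cells (12 and 10 lower), no filter gave 7 cytosolic, 22 April 0 and 0, 11 April 5 and 6, summed triplets 3 and 2, and triplets without the 6 gave 1 and 1. Hepatocyte scaling gave 1 and 1 lower, with medians of 0.18 and 0.30, HARS1 at 0.26, KARS1 at 0.14, VARS1 at 0.02, VARS2 at 0.08 and LARS2 at 0.52. With the 6 also left out it gave 4 and 3, a mitochondrial median of 0.08 and LARS2 at 0.30; LARS2 was at 0.14 without the 6 alone. For the difference of the responses (10 and 8 lower), no filter gave 6 and 3, 22 April 0 and 0, 11 April 2 and 1, hepatocyte scaling 1 and 1, and summed triplets 0 and 0 with and without the 6. Omission of the 6 gave 1 mitochondrial member and a mitochondrial median of 0.01; with hepatocyte scaling that median was 0.08, and with both the cytosolic count was 18. Hepatocyte scaling moved the median of all genes by construction, to between 0.14 and 0.49. The causes of the other shifts were not tested. Leaving out 1 library at a time gave 10 to 13 and 2 to 8 higher with insulin in normal medium, and 0 to 2 mitochondrial calls in resistant medium. It gave 2 to 3 and 3 to 6 calls for the medium in untreated cells (medians -0.03 to 0.02 and -0.01 to 0.04), 8 to 13 and 7 to 10 lower in stimulated cells, and 7 to 11 and 2 to 8 lower for the difference; IARS2 with insulin in normal medium ran from -0.12 to 0.02. In 28 of these 36 fits edgeR took another TMM reference library, and 2 to 6 mitochondrial members were then higher with insulin in normal medium, against 8 in the other 8 fits.

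The labels do not say that replicate numbers pair the samples. Over 54 pairs of same-numbered libraries, deviations from the group means correlated at -0.82 to 0.738, median 0.064, with 22 pairs over 0.1. These values cannot exclude pairing, because the deviations include differences between triplets. The low-stromal triplet carries different numbers in the 2 groups that hold one. With the replicate number as a block, 16 cytosolic and 8 mitochondrial members were higher with insulin in normal medium. In resistant medium 0 and 2 were called, and 3 and 5 for the medium in untreated cells. In stimulated cells 13 and 9 were lower, and 11 and 8 for the difference. Shares of all genes are not given for this fit, so the counts show only how calls moved.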
